A study of Mus musculus with 10 samples.

Results

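The creatine kinases and the enzymes and transporter that supply creatine and adjust the adenine nucleotides were followed through myogenic differentiation of C2C12 cells, a mouse myoblast line. The group was taken by gene symbol from the table of 35275 genes, and all 10 symbols were found: Ckm, Ckb, Ckmt1, Ckmt2, Slc6a8, Gatm, Gamt, Ampd1, Ampd3 and Ak1. The 10 RNA-seq libraries comprise 5 of cells in growth medium with fetal bovine serum, before differentiation was induced, and 5 of cells on day 6 in differentiation medium, in which the serum is horse serum at a lower share. Both conditions used the same established line with no other agent or genetic change named in the labels. A culture on day 6 can hold unfused cells beside myotubes.

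Creatine kinases move a phosphate between ATP and creatine, so that a store of phosphocreatine can refill ATP at once when a muscle contracts. Cytosolic kinases, the muscle form (Ckm) and the brain form (Ckb), work where ATP is used, and mitochondrial kinases, the ubiquitous form (Ckmt1) and the sarcomeric form (Ckmt2), work where ATP is made. Adenylate kinase makes ATP and AMP from a pair of ADP molecules, and AMP deaminase removes the AMP by turning it into IMP.

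Library depth was 16288532 to 21622527 counts before differentiation and 15367909 to 20509280 counts on day 6. Levels are expressed as CPM, counts per 1000000 after scaling of the library totals, which compare 1 gene between libraries, and as FPKM, which also divide by gene length and so compare genes with each other. Fold changes are day 6 over before differentiation, from edgeR's quasi-likelihood test with p-values adjusted over the 13085 genes that passed a filter on low counts. Whether the replicates are separate cultures is not in the labels, and the p-values therefore rest on the spread among the libraries, which may be technical. The line expressed muscle markers in both conditions: 8 of them summed to 1359 to 1411 CPM before differentiation and to 12869 to 16458 CPM on day 6, and 7 rose. Adipocyte markers summed to at most 0.242 CPM, with Cidec and Lep at 0, and neuron and glia markers to at most 2.21 CPM, with Snap25 and Rbfox3 at 0. Endothelial and immune markers stayed at or below 2.91 CPM, and the osteoblast list, mostly Runx2 with Ibsp at 0, summed to 83.5 to 93.7 CPM before and 38.1 to 41.1 CPM on day 6. Within day 6, replicates 1 and 2 stood apart from replicates 3 to 5 on the first principal component (49.5% of the variance, -24.3 and -24.4 against 12.2 to 18.7).

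Of the 10 genes, 8 had enough counts to be tested, and the mitochondrial kinases Ckmt1 and Ckmt2 did not. Of the 8, 7 were upregulated on day 6 and 1, Gatm, was called lower. The Gatm change was small, and its call held in only 9 of 20 alternatives to the processing. Of all genes tested, 40.1% were called higher, 39.7% lower and 79.8% in either direction, so a call by itself set few genes apart in this comparison. The median log2 fold change was 0.98 over the 8 genes and 0.01 over all genes tested. In 7 of the 8, the day 6 libraries were all above the early ones, and in Gatm the conditions overlapped. No overlap in either direction was thus also found in 7 of the 8. Among all genes tested, 69.1% had no overlap between the conditions, with day 6 either above or below. In these bulk libraries, fewer cells that express a gene and less of its RNA per cell cannot be told apart.

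**Figure D1:**
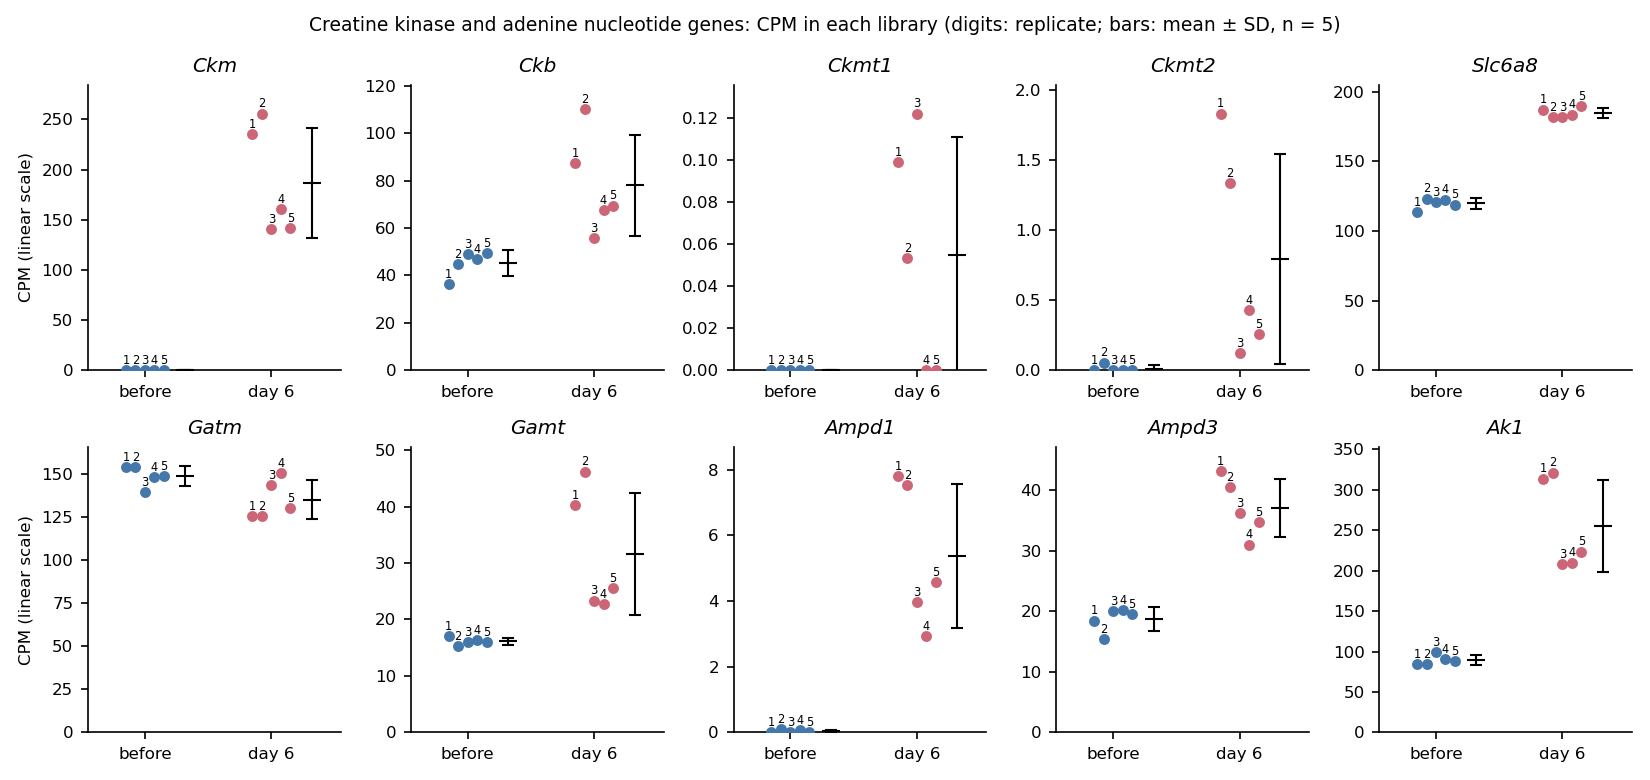
CPM of the 10 genes in each library (digits, replicate; linear scale, each panel with its own axis from 0) with mean ± SD over 5 libraries beside each condition. Ckm and Ampd1 went from near 0 to means of 187 and 5.36 CPM, Slc6a8 rose with little spread, the Gatm libraries of both conditions overlapped, and for Ckm, Ckb, Ckmt2, Gamt, Ampd1, Ampd3 and Ak1 the day 6 replicates 1 and 2 were the highest libraries.

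Ckm, the muscle creatine kinase that binds the M-line of the sarcomere, changed the most. Before differentiation its level was 0.110, 0.162, 0.142, 0 and 0.0592 CPM in replicates 1 to 5. On day 6 it was 235, 256, 141, 160 and 141 CPM. The early libraries were all at the edge of detection, with 9 counts among them, and the day 6 libraries held 16671 counts. The ratio of the summed counts per scaled library total was 1941 (95% counting interval, 1022 to 4245). The fitted log2 fold change was 10.79 (standard error 0.417, edgeR adjusted p = 5.09e-09). Ckm (mm10, chromosome 7, from 19411094 to 19421583) overlaps A930016O22Rik on the other strand over 2606 bases, a gene with 0 counts before differentiation and 5 on day 6.

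Ckb, the brain-type kinase that is also the form of undifferentiated myoblasts, is on chromosome 12 from 111669355 to 111672338. Its level was 36.2, 44.6, 49.1, 46.8 and 49.3 CPM before differentiation. It was 87.4, 110, 55.6, 67.5 and 69.5 CPM on day 6. Ckb rose beside Ckm, and its lowest library of day 6 was above its highest one before differentiation. The log2 fold change was 0.79 (standard error 0.180, edgeR adjusted p = 0.0025), and it was 0.52 without replicates 1 and 2 of day 6 and 1.17 without replicates 3 to 5.

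Set side by side per gene length, the kinases exchanged places. The summed FPKM of the 4 creatine kinases went from 30.8 ± 3.44 to 184 ± 50.8 (SD, n = 5), 5.96-fold higher. Ckb made up 99.8% ± 0.191 of that sum before differentiation and 28.6% ± 2.19 on day 6. Ckm went from 0.224% ± 0.156 to 71.1% ± 2.08. The share of Ckm on day 6 stayed within 67.9% to 73.3% in all 5 libraries, although its CPM ranged from 141 to 256, so that both cytosolic kinases were high or low in the same libraries. Each difference in share had p = 0.00794 in a two-sided exact permutation test, the smallest p that 5 against 5 libraries can give, and 0.0109 after adjustment over the 11 shares and ratios tested. Shares within a family sum to the whole, so their tests are not independent. With so little held by the mitochondrial kinases, the tests of Ckb and Ckm are nearly the same test.

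The mitochondrial kinases remained rare. Ckmt2, the sarcomeric mitochondrial kinase (chromosome 13, from 91853387 to 91876885), had 0, 1, 0, 0 and 0 counts before differentiation. On day 6 it had 37, 25, 2, 7 and 4 counts. All day 6 libraries were above all early ones, but replicates 1 and 2 held most of the 75 counts. The ratio was 78.6 with a 95% counting interval from 13.7 to 3145. Ckmt2 was below the filter of the main test, and it was called when no filter was applied (edgeR adjusted p = 2.16e-06) and by DESeq2 (adjusted p = 2.33e-06). Ckmt1, the ubiquitous mitochondrial kinase (chromosome 2, from 121357714 to 121363737), had no count before differentiation and 2, 1, 2, 0 and 0 counts on day 6. At this depth a difference was not detectable (adjusted p = 0.0558 in edgeR with no filter).

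Together Ckmt1 and Ckmt2 contributed under 1% of creatine kinase FPKM in every library. The share of Ckmt2 was 0.0239% before differentiation and 0.251% ± 0.197 on day 6 (exact permutation p = 0.0238, adjusted 0.0262), and that of Ckmt1 was 0 and 0.0189% (exact permutation p = 0.167). Leaving out any one of the early replicates 1, 3, 4 and 5 gave 0.221 percentage points for Ckmt2 and ended the call (exact permutation test, adjusted p = 0.0611), and leaving out replicate 4 or 5 of day 6 gave 0.0237 percentage points for Ckmt1, which then passed (exact permutation test, adjusted p = 0.0476). Without replicates 1 and 2 of day 6 the Ckmt2 difference was 0.0956 percentage points and no longer passed (exact permutation test, adjusted p = 0.138). The log2 ratio of Ckm to Ckmt2 FPKM, with 0.01 added to each, went from 2.08 to 8.49, a difference of 6.41 (exact permutation p = 0.00794, adjusted 0.0109). Its early value rests on 9 counts of Ckm, 1 count of Ckmt2 and the 0.01 FPKM added, and with counts in place of FPKM the difference was 3.66 and did not pass (exact permutation test, adjusted p = 0.0698). The log2 ratio of summed cytosolic to summed mitochondrial kinases went from 11.14 to 8.78, a difference of -2.36 (exact permutation p = 0.0238, adjusted 0.0262), which rests on 1 mitochondrial count before differentiation and on the 0.01 FPKM added. Without replicates 1 and 2 of day 6 that difference was -1.68 (exact permutation test, adjusted p = 0.109).

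**Figure D2:**
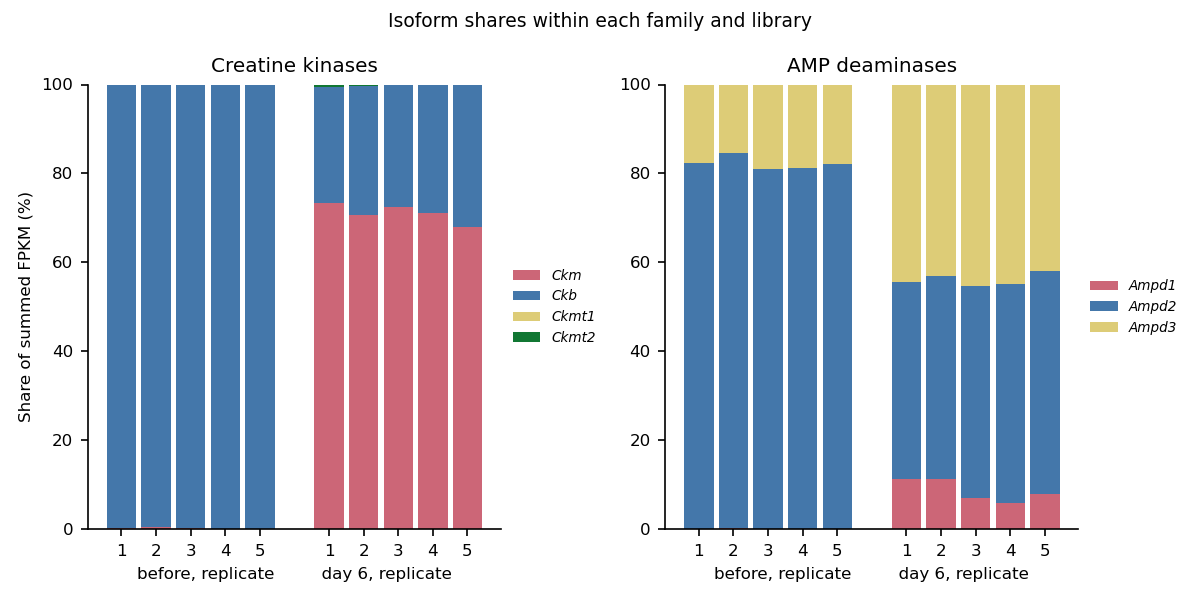
Share of each isoform (percent of summed FPKM, y axis) in each library (x axis, replicate within condition) for the creatine kinases and the AMP deaminases. Ckm took 67.9% to 73.3% of its family on day 6 and under 1% before, and Ampd3 and Ampd1 gained what Ampd2 lost.

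The start regions of Ckm, Ckb and Ckmt2, the creatine kinase genes with 1 listed start each, are shown to compare the letters that muscle regulators are known to bind. Each run is 250 bases before and 50 bases from the start in RefSeq on GRCm38.p6 and reads in the direction of the gene, from chr7:19410844-19411143 on the plus strand for Ckm, chr12:111672289-111672588 on the minus strand for Ckb and chr13:91876836-91877135 on the minus strand for Ckmt2. Capitals mark E-boxes (CANNTG, the same on both strands, bound by MYOD1 and MYOG) and matches to the MEF2 motif on either strand.
Ckm: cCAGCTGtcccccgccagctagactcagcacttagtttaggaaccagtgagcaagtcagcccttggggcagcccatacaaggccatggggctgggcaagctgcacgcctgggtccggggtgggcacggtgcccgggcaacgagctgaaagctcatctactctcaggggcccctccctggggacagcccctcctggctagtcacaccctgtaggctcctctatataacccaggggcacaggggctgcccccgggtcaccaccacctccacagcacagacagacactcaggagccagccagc
Ckb: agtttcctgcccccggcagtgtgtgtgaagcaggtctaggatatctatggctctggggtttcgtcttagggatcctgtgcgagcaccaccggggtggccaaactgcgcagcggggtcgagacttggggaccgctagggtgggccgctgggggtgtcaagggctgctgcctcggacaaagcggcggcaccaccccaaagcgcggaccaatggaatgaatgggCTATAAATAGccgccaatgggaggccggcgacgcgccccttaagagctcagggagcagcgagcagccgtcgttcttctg
Ckmt2: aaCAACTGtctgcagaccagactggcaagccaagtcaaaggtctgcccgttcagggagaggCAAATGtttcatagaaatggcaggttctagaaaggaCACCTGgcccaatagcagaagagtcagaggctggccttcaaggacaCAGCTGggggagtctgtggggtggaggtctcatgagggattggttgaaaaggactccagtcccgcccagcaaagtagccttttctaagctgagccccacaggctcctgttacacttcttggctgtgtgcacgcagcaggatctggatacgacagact
Ckm held 1 E-box, CAGCTG at position -249, near the far edge of the window. Ckmt2, with the fewest counts of the 3, held 4 E-boxes, at -248, -189, -153 and -107, of which the last was CAGCTG. Ckb held no E-box and 1 MEF2 match at -29, whose letters include the TATA box letters TATAAA. Of 32851 listed mouse promoters of this length, 72.3% held an E-box of any kind, 16.3% held CAGCTG, 3.19% a MEF2 match and 1.63% a CArG box, and none of the 3 shown held a CArG box. Start regions were listed for 8 of the 10 genes, 14 in number, and not for Slc6a8 and Ampd1. A match is a description of the letters only.

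Creatine reaches a cell through its transporter or is made from arginine and glycine. Slc6a8, the sodium-dependent creatine transporter, lies on chromosome X from 73673150 to 73682502. It was at 113.7, 123, 121, 123 and 119 CPM before differentiation. It was at 187, 182, 182, 184 and 190 CPM on day 6. The 5 libraries of a condition were nearly equal, and the conditions were far apart. Its log2 fold change of 0.63 was among the smaller of the group and had the smallest standard error (0.0433, edgeR adjusted p = 2.42e-10). Across 20 alternatives to the processing it stayed between 0.60 and 0.67.

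The first enzyme of creatine synthesis, Gatm, which transfers the amidino group of arginine to glycine in mitochondria, is on chromosome 2 from 122594467 to 122611303. Its level was 154, 154, 140, 148 and 149 CPM before differentiation. It was 125, 126, 144, 150 and 130 CPM on day 6. Replicates 3 and 4 of day 6 lay within the range of the early libraries and the other 3 lay below it. The log2 fold change was -0.14 (standard error 0.0569, edgeR adjusted p = 0.0296). The call was lost in 11 of 20 alternatives, among them those without replicate 1 or 2 before differentiation or replicate 1, 2 or 5 of day 6 (edgeR adjusted p = 0.0555 to 0.13), the fit without replicates 1 and 2 of day 6 (-0.06, edgeR adjusted p = 0.289) and DESeq2 (adjusted p = 0.0587).

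Gamt, which adds the methyl group that completes creatine, is on chromosome 10 from 80258151 to 80261012. It was at 17.0, 15.2, 16.0, 16.3 and 16.1 CPM before differentiation. It was at 40.2, 46.2, 23.3, 22.8 and 25.5 CPM on day 6. The early libraries were tight, all day 6 libraries were above them, and replicates 1 and 2 of day 6 were well above the other 3. The log2 fold change was 0.98 (standard error 0.204, edgeR adjusted p = 0.00109), with 0.58 without replicates 1 and 2 of day 6 and 1.46 without replicates 3 to 5.

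At the level of RNA, the balance between the genes of both steps therefore shifted toward Gamt. The log2 ratio of Gamt to Gatm FPKM was -1.93 ± 0.0784 before differentiation and -0.88 ± 0.580 on day 6, a difference of 1.05 (exact permutation p = 0.00794, adjusted 0.0109). In replicates 1 and 2 of day 6 it was -0.37 and -0.17, and in replicates 3 to 5 it was -1.35, -1.45 and -1.08. The difference was 0.64 without the first pair and 1.66 without the other 3. Gatm remained the more abundant of the pair per length in all 10 libraries.

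AMP deaminases were rearranged as well. Ampd1, the skeletal muscle form, lies on chromosome 3 from 103074014 to 103099714 and had 0, 2, 0, 1 and 0 counts before differentiation. On day 6 it had 158, 141, 65, 48 and 71 counts, or 7.81, 7.53, 3.96, 2.93 and 4.58 CPM. All day 6 libraries were far above all early ones, with replicates 1 and 2 the highest. The ratio was 169 (95% counting interval, 57.4 to 821), and the fitted log2 fold change was 7.08 (standard error 0.532, edgeR adjusted p = 1.54e-09).

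Ampd3, the form first described in red blood cells, lies on chromosome 7 from 110768206 to 110812405. It was at 18.5, 15.4, 20.03, 20.3 and 19.5 CPM before differentiation. It was at 43.1, 40.6, 36.2, 31.0 and 34.8 CPM on day 6. All day 6 libraries were above all early ones, with a log2 fold change of 0.99 (standard error 0.0965, edgeR adjusted p = 3.05e-08). Ampd3 shares 11974 bases with Rnf141 on the other strand, which had 4479 counts before and 3261 on day 6, and whether the counting used strand is not given in the sources used here.

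The third gene of the family, Ampd2, a widely expressed form, fell from 77.2 to 35.6 CPM (log2 fold change -1.11, edgeR adjusted p = 2.04e-11). The summed FPKM of the 3 deaminases was 25.9 ± 1.10 before and 20.5 ± 2.67 on day 6, so the family changed more in make-up than in sum. Ampd2 went from 82.2% ± 1.38 to 47.4% ± 2.39 of that sum, Ampd3 from 17.8% ± 1.43 to 43.9% ± 1.33 and Ampd1 from 0.0461% to 8.65% ± 2.47 (each exact permutation p = 0.00794, adjusted 0.0109). The muscle form Ampd1 thus remained the least abundant of the 3 on day 6, at 5.96% to 11.3% of the sum.

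Ak1, the cytosolic adenylate kinase of muscle and brain, lies on chromosome 2 from 32621758 to 32646805. It was at 84.1, 84.3, 99.3, 90.8 and 87.9 CPM before differentiation. It was at 314, 321, 208, 210 and 223 CPM on day 6. All day 6 libraries were above all early ones, and again replicates 1 and 2 were the highest. The log2 fold change was 1.52 (standard error 0.142, edgeR adjusted p = 2.47e-06), and without replicates 1 and 2 of day 6 it was 1.27. It shares 211 bases with Eng on the same strand, which had 194 counts before and 339 on day 6.

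Ordered by FPKM before differentiation, Gatm came first at 62.8 ± 3.29, then Ak1 at 43.0 ± 2.47, Ckb at 30.7 ± 3.45, Slc6a8 at 30.4 ± 0.897, Gamt at 16.4 ± 0.834 and Ampd3 at 4.60 ± 0.495. Ckb and Slc6a8 overlapped in that order, and Ckm, Ampd1, Ckmt2 and Ckmt1 followed at under 0.1 FPKM. On day 6 Ckm came first at 131 ± 37.2 and overlapped Ak1 at 121 ± 26.3. Next came Gatm at 56.1 ± 4.80, Ckb at 52.3 ± 13.8, Slc6a8 at 46.3 ± 1.25 and Gamt at 31.7 ± 10.6, each overlapping the next. Ampd3 at 8.998 ± 1.11 was apart from Gamt above and Ampd1 below, and Ampd1 at 1.82 ± 0.732 overlapped Ckmt2 at 0.527 ± 0.495.

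The split of the day 6 libraries ran through most of the group. In 6 of the 8 genes tested, replicates 1 and 2 were both above replicates 3 to 5, as in 22.7% of all genes tested, and in 1, Gatm, both were below, as in 22.2%. Slc6a8 was mixed. Relative to the day 6 mean, Gamt stood at 1.27 and 1.46 in replicates 1 and 2 and at 0.739, 0.721 and 0.807 in replicates 3 to 5. Ampd1 ranged from 0.546 to 1.46, Ckm from 0.755 to 1.37 and Slc6a8 from 0.983 to 1.03. Of the muscle markers, Des, Acta1, Ttn, Neb, Tmem8c and Cdh15 also had replicates 1 and 2 both above replicates 3 to 5. Acta1 ranged from 0.849 to 1.21 and Ttn from 0.904 to 1.07. Myod1 and Myog were mixed, with Myog at 0.921, 0.933, 1.13, 1.10 and 0.917 in replicates 1 to 5. The myosin genes Myh7 and Myh4 ranged from 0.700 to 1.54 and from 0.725 to 1.36. They were picked for profiles near that of Ckm over these same libraries, so a range like that of Ckm follows from the choice. What sets these libraries apart was not tested.

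**Figure D3:**
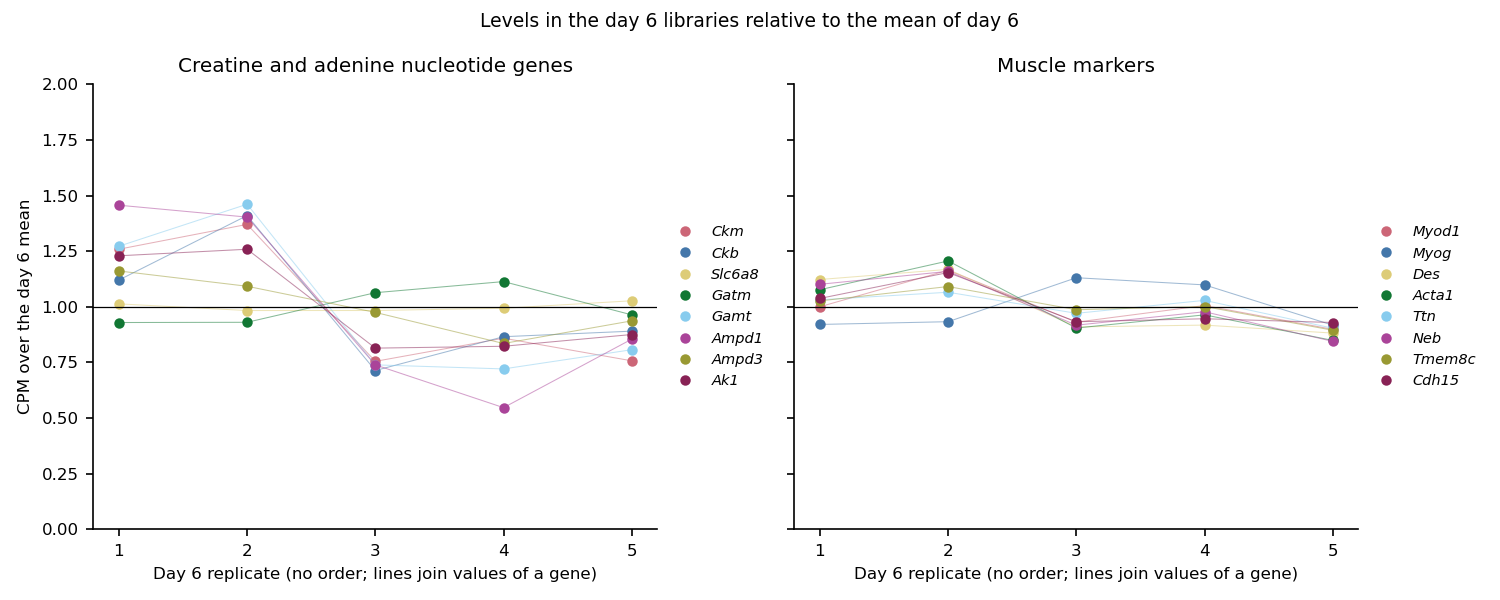
CPM in each day 6 library divided by the day 6 mean of that gene (y axis, linear) for the 8 genes tested, left, and for 8 muscle markers, right. Lines only join values of a gene, and replicates have no order. Replicates 1 and 2 were above replicates 3 to 5 for Ckm, Ckb, Gamt, Ampd1, Ampd3 and Ak1, below them for Gatm, and Slc6a8 stayed at 0.983 to 1.03. Among the muscle markers they were above for Des, Acta1, Ttn, Neb, Tmem8c and Cdh15 and mixed for Myod1 and Myog.

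Genes of related functions were counted in 4 lists of 64 genes. Of these 49 were tested, of which 14 were higher and 31 lower, beside 40.1% higher and 39.7% lower among all genes tested. Their median log2 fold change was -0.56, against 0.01 over all genes tested. Of 10 adenylate and nucleoside diphosphate kinases tested, 3 were higher and 7 lower (median, -0.79). The largest increase was that of Ak5, a brain adenylate kinase, from 0.751 to 2.13 CPM (log2 fold change 1.5, edgeR adjusted p = 9.71e-05). Nme1 and Nme2, neighbouring nucleoside diphosphate kinases known to be close in sequence, had log2 fold changes of -1.86 and 0.78 (edgeR adjusted p = 2.02e-11 and 0.0386). Whether reads were split between them was not tested, and these values are uncertain.

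Of 16 genes tested for the purine nucleotide cycle, AMP breakdown and salvage, 5 were higher and 11 lower (median, -0.64). The adenylosuccinate synthases, which return IMP toward AMP, changed in opposite directions. Adssl1, the muscle form, rose from 14.4 ± 1.15 to 147 ± 21.3 CPM (log2 change 3.35, standard error 0.0962, edgeR adjusted p = 2.22e-14). Adss, the form of other tissues, fell from 200.2 ± 4.10 to 51.0 ± 7.67 CPM (log2 change -1.98, standard error 0.0833, edgeR adjusted p = 2.35e-12). In a share looked at after these values were seen and not tested, Adssl1 went from 9.74% ± 0.747 to 80.9% ± 4.20 of their summed FPKM, while that sum was 80.5 FPKM before and 97.0 FPKM on day 6. Aprt, which salvages adenine, fell from 116 ± 5.76 to 37.1 ± 1.90 CPM (log2 fold change -1.65, edgeR adjusted p = 6.63e-15).

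Of 9 mitochondrial carriers and outer membrane channels tested, 1 was higher, 5 were lower and 3 did not pass (median, -0.26). Slc25a5, an ADP/ATP carrier of dividing cells and the gene with the highest mean FPKM of the list over all 10 libraries, fell from 534 ± 21.8 to 209 ± 22.8 CPM (log2 fold change -1.35, edgeR adjusted p = 1.24e-12). Slc25a4, the heart and muscle carrier, was at 342 CPM before and 316 CPM on day 6 (log2 fold change -0.11, edgeR adjusted p = 0.331). That day 6 mean joins 360 and 392 CPM in replicates 1 and 2 with 264 to 285 CPM in replicates 3 to 5. The libraries before differentiation held 311 to 364 CPM. In a share also chosen after the values were seen, Slc25a4 made up 29.2% ± 0.653 of the FPKM of this pair before and 49.2% ± 1.77 on day 6. Slc25a23, an ATP-magnesium and phosphate carrier, rose from 1.22 to 3.53 CPM (log2 fold change 1.51, edgeR adjusted p = 0.00011).

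Of 14 genes tested for the supply of arginine, glycine and methyl groups, 5 were higher, 8 lower and 1 did not pass (median, -0.27). Slc7a2, a transporter of cationic amino acids such as arginine, rose from 5.26 ± 1.04 to 83.1 ± 6.19 CPM (log2 fold change 3.97, edgeR adjusted p = 7.14e-16). Slc7a1, another such transporter in the list, fell from 215 ± 10.6 to 142 ± 44.4 CPM (log2 fold change -0.59, edgeR adjusted p = 0.026). On day 6 it was at 86.7 and 105 CPM in replicates 1 and 2 and at 156 to 186 CPM in replicates 3 to 5. Before differentiation it was at 197 to 224 CPM. The serine hydroxymethyltransferases, which make glycine from serine, both fell. Shmt1, of the cytosol, went from 38.9 ± 2.95 to 7.17 ± 1.08 CPM (log2 fold change -2.43, edgeR adjusted p = 1.20e-13), and Shmt2, of mitochondria and with the highest mean FPKM of the list over all 10 libraries, from 378 ± 12.7 to 180.1 ± 79.2 CPM (log2 change -1.07, standard error 0.305, edgeR adjusted p = 0.0104). Shmt2 also split the day 6 libraries, with 87.7 and 106 CPM in replicates 1 and 2 and 201 to 254 CPM in replicates 3 to 5.

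**Figure D4:**
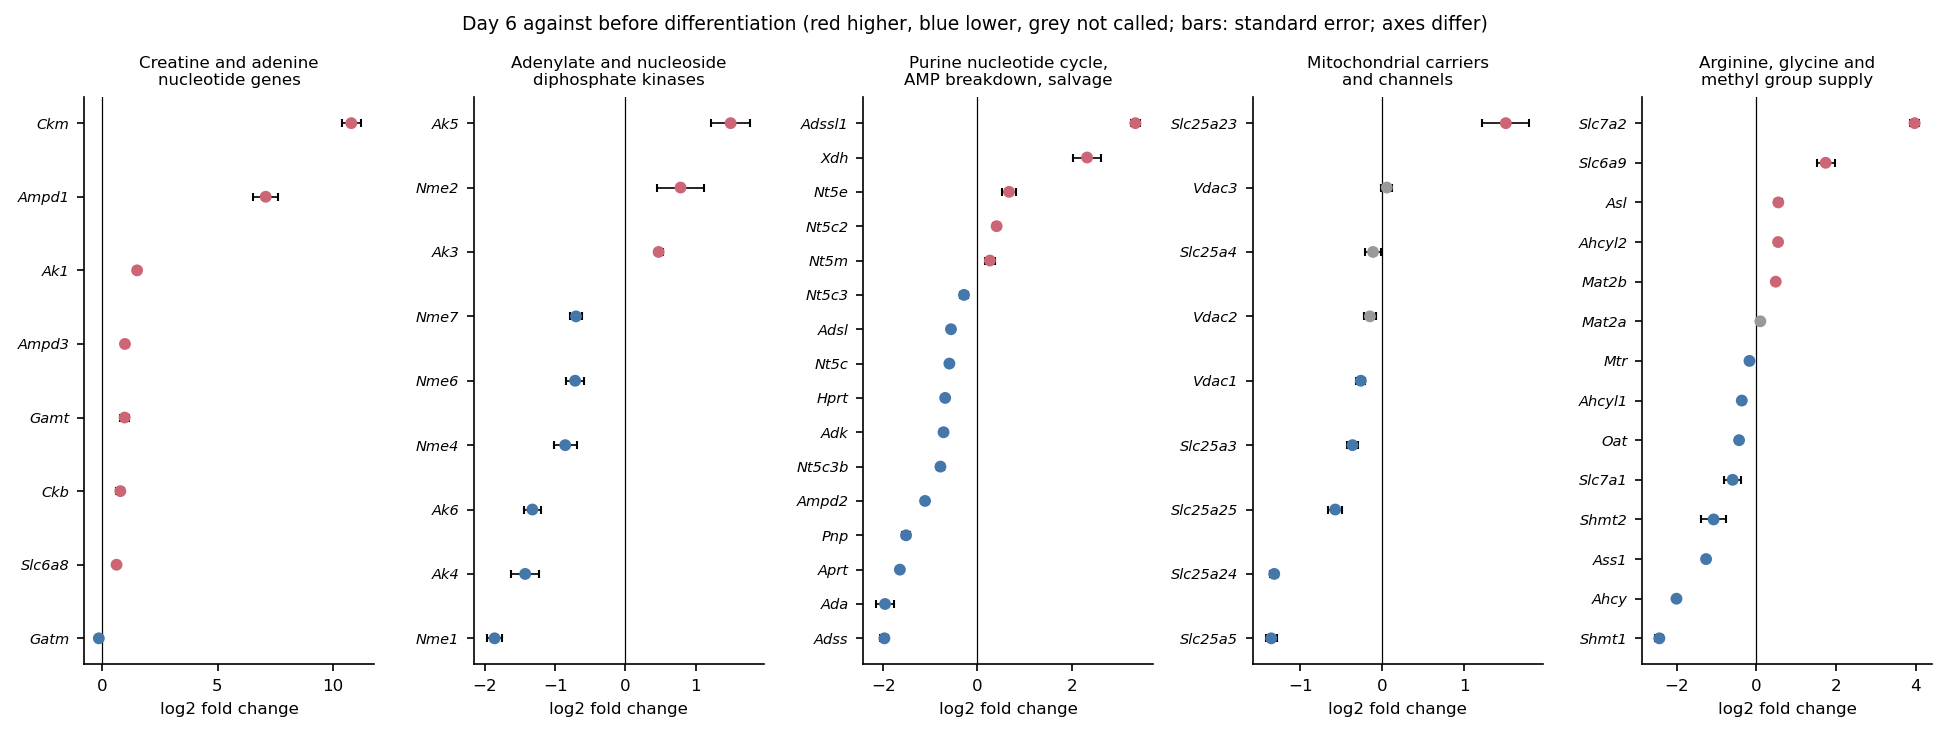
Log2 fold change, day 6 over before differentiation (x axis, each panel with its own range), with its standard error, for the 8 genes tested and the tested genes of the 4 lists except 1, where red is higher, blue lower and grey not called. Of the 8, 7 lie right of 0, while most of the list genes lie left of it and are called lower.

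By profile over the 10 libraries, the protein-coding genes nearest to Ckm were Myh7 and Myh4, which encode myosin heavy chains, Pgm5, Myom3, which encodes an M-band protein, and Hfe2, which encodes hemojuvelin. The root mean square difference of their centred log2(CPM + 1) values from those of Ckm was 0.134, 0.144, 0.160, 0.192 and 0.208. The measure is a description over 10 libraries of 2 conditions.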

How the data were processed

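The 10 RNA-seq libraries were grouped by the sample labels, and the day was taken from the paper. Per the authors, reads went through Trimmomatic, then STAR 2.5 with the mm10 genome, and HTSeq 0.6.1 made the deposited raw counts from unique alignments. The authors also deposited FPKM, which were checked to equal counts per kilobase of gene and per 1000000 counts of the library. How HTSeq treated strand and overlapping genes is not given in the sources used here.

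Counts were fitted with edgeR 4.0.16 (R 4.3.3) by the quasi-likelihood test with the robust option, filterByExpr by condition, TMM factors and condition alone in the design. P-values were adjusted by Benjamini and Hochberg over the 13085 of 35275 genes tested, with a threshold of 0.05. Standard errors were derived from the fit's F statistic. Deposited FPKM gave shares and log2 ratios (0.01 FPKM added), tested by two-sided exact permutation over the libraries (scipy 1.17.1), adjusted over 11 quantities. Counting intervals (95%) cover counting error only.

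The named genes are all 10 of the group, and of each related list the most abundant by FPKM and the called genes of largest increase and decrease whose higher condition had 1 CPM or more, the 5 genes nearest to Ckm, and overlapping genes. Ampd2 was added to complete its family, and Nme1, Nme2, Slc25a4 and Slc7a1 were chosen after their values were seen. A gene that the rule names, and the shares in its family, are not reported here. The group and all lists were chosen with earlier results of these data known. Replicate numbers did not pair the libraries (correlation of deviations -0.0452 to 0.00996 for 5 numbers). The edgeR fit was tested on simulated counts in which far fewer genes changed than here, and the permutation test on simple made-up values. Alternatives were DESeq2 1.42.0, other scaling factors, other filters, a replicate block, each library left out, and sets of libraries left out.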

Additional observations from a re-analysis of the deposited data

Results flagged for a closer look

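Among 40 sets of 5 libraries looked at, 3 held a library far from the others. The rule was a gap to the nearest value above 0.71 of the whole range. A rate by chance of about 1 in 20 sets does not hold where all libraries but 1 are at 0, since the rule always marks such a set. Sets of the same gene are also not independent. All 3 marked sets come from the same single count of Ckmt2 in replicate 2 before differentiation. Its CPM there was 0.0539, against 0 in the other 4 libraries. Its share of creatine kinase FPKM was 0.120%, against 0 in the others. The log2 ratio of cytosolic to mitochondrial kinases was 9.36 in that library, against 11.3 to 11.7 in the others. No further value bears on whether that count is a transcript of the gene.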

How the results depend on the processing

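The log2 fold changes of Ckm, Ckb, Slc6a8, Gamt, Ampd3 and Ak1 kept their direction and call under 20 alternatives, with ranges, in this order, of 10.46 to 11.48, 0.52 to 1.17, 0.60 to 0.67, 0.58 to 1.46, 0.88 to 1.20 and 1.27 to 1.87. Ampd1, which the stricter filter removed, kept both under the other 19 (6.59 to 8.02). Gatm was the exception (-0.20 to -0.06): the number of genes of the group called lower was 0 with relative log expression or upper-quartile factors, 0 with no filter, 0 with a stricter filter (5 CPM or more in 5 or more libraries), 0 without replicates 1 and 2 of day 6 and 0 with DESeq2, and it ranged from 0 to 1 when 1 library was left out. The number called higher was 6 to 8.

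Of the shares and ratios, those of the mitochondrial kinases moved. With 1 library left out, the difference in the share of Ckmt1 was 0.00995 to 0.0237 percentage points and that of Ckmt2 0.153 to 0.274. Without replicates 3 to 5 of day 6 the Ckmt1 difference was 0.0199 (exact permutation test, adjusted p = 0.0476). That value equals the smallest p that 2 against 5 libraries can give, and it rests on 2 and 1 counts. The Ckmt2 difference was 0.0956 without replicates 1 and 2 of day 6 (adjusted p = 0.138) and 0.251 without replicates 2 and 3 before differentiation (adjusted p = 0.0786), both by the exact permutation test. The ratio of Ckm to Ckmt2 differed by 3.66 when counts replaced FPKM (exact permutation test, adjusted p = 0.0698), and that of cytosolic to mitochondrial kinases by -1.68 without replicates 1 and 2 of day 6 (exact permutation test, adjusted p = 0.109). Fewer libraries also raise the smallest p the test can reach, and the cause of these moves was otherwise not tested. Adenylate and nucleoside diphosphate kinases called higher numbered 5 with no filter or DESeq2 and 1 with the stricter filter, and mitochondrial carriers and channels called higher numbered 0 with the stricter filter and 2 without replicates 1 and 2 or without replicates 3 to 5 of day 6.

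With the replicate number as a block, 10303 genes were called against 10444 without it, and no call among the 8 genes tested changed. The numbers did not pair the libraries, and a paired test of 5 shares cannot go below p = 0.0625 by exact sign flips. Depth limits Ckmt1, Ckmt2 and the early levels of Ckm and Ampd1, which rest on 0 to 9 counts.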
